A study of Mus musculus with 6 samples.

Results

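The genes described here are those of MHC class I, the molecules that present peptides from inside the cell at its surface, and of the machinery that loads peptides onto them. The list held 10 mouse genes: the heavy chains H2-K1 and H2-D1, the light chain B2m, the peptide transporter genes Tap1 and Tap2, the loading genes Tapbp, Tapbpl and Calr, the trimming peptidase gene Erap1 and the transcriptional regulator Nlrc5. A feature is a set of probes on the array that yields 1 value, and the members were found by their gene symbols in the annotation of the features. Of 35545 features, 30 carried the symbol of a member, and 26 of these belonged to 1 member alone. H2-K1 and H2-D1 had no feature of their own and were measured by 2 features that they shared, together with LOC547349. The other 2 features joined Tapbp to Rps3a1. Each of the 8 genes with a feature of its own was represented by the feature with the highest mean value, as were all 19930 genes of the table.

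Expression was compared between 2 lines derived from RAW264.7, a mouse macrophage line of BALB/c origin that forms osteoclasts in the presence of RANKL. H10 cells fuse into multinucleated osteoclasts and C8 cells do not, and each line was measured on 3 Affymetrix Mouse Gene 1.0 ST arrays after 2 days with sRANKL, the soluble form of the cytokine, at 60 ng/mL. Both lines carry Lifeact-mEGFP, a fluorescent label of actin, and the puromycin resistance of the retroviral vector, and both are clones obtained by limiting dilution. Each phenotype is thus represented by 1 clone. Cells without sRANKL are not analysed here. Values are on the log2 scale, and differences are given as H10 minus C8. A gene was called higher or lower at an adjusted p under 0.05 in limma. This method fits a linear model to each feature and moderates the variances across all features. Whether the replicates were separate cultures is not stated, so p-values reflect only the spread among 3 arrays per line, and part of that spread may be technical.

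MHC class I displays short peptides from the cytosol to CD8+ T cells. The proteasome cuts proteins into peptides, the TAP1 and TAP2 transporter moves them into the endoplasmic reticulum, and ERAP1 trims them there. Tapasin (Tapbp) bridges the transporter and the empty heavy chain, which is held by β2-microglobulin (B2m), calreticulin (Calr) and the disulfide isomerase ERp57 (Pdia3), while TAPBPR (Tapbpl) edits the peptide later. NLRC5 is a transactivator that acts at class I promoters through the RFX complex, and interferons raise most of these genes through IRF and STAT factors.

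The promoters of some members are shown as they stand in RefSeq (GRCm38.p6, the C57BL/6J reference). They were searched for motifs through which such factors are known to act, and not every promoter holds every motif. In the Tap1 promoter the only match was to the Y box, ATTGG. Tapbp and Calr also had promoter entries, which are not printed. Each line gives the 250 bases before the transcription start on the strand of the gene, 5′ to 3′. Capitals mark the motif matches, on either strand. H2-K1 has 2 listed promoters, of which 1 is shown, and H2-Q4, another class I heavy chain gene, is included for comparison with H2-K1 and H2-D1.
H2-K1 promoter, chr17:34000348-34000597, minus strand: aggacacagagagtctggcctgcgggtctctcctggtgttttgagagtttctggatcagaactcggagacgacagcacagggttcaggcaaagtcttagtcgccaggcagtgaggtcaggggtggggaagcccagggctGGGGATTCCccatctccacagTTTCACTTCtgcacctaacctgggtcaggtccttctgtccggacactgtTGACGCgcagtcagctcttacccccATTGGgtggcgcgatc
H2-D1 promoter, chr17:35262844-35263093, plus strand: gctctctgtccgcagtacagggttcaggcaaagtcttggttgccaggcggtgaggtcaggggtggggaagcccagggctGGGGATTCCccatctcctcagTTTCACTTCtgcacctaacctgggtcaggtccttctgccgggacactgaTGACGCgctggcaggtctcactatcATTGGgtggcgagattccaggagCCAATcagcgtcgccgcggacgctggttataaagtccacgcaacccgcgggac
H2-Q4 promoter, chr17:35379367-35379616, plus strand: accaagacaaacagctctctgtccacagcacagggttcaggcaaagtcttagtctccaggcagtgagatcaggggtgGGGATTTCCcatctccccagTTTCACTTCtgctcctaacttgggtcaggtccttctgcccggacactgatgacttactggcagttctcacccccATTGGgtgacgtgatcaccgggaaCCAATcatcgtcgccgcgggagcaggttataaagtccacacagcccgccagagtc
B2m promoter, chr2:122147437-122147686, plus strand: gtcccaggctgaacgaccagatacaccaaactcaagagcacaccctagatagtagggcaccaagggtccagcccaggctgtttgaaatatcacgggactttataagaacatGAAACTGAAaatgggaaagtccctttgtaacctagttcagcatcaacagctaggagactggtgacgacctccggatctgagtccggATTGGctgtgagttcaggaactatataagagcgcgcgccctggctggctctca
Erap1 promoter, chr13:74639603-74639852, plus strand: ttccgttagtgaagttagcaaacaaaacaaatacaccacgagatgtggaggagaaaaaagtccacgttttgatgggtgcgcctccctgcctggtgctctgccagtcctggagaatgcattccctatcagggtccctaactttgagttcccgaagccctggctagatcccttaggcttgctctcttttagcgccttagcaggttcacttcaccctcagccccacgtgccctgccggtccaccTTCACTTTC
Tap1 promoter, chr17:34187306-34187555, plus strand: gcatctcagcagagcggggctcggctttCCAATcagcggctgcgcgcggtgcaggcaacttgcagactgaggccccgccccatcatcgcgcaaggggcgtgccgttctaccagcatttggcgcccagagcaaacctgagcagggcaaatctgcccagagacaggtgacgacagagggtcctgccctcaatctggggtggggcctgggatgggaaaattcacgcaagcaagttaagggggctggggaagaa

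Of the 10 members, 7 had an entry in the promoter table, and Tap2, Tapbpl and Nlrc5 did not. The motifs were searched on both strands in windows of 300 bases, from 250 before the start to 50 after it, in all 32841 promoters. The core of the interferon-stimulated response element, GAAANNGAA, was found in B2m, beginning 139 bases before the start, and in Erap1, where 2 overlapping matches began 9 and 3 bases before it. It was in 8.56% of all promoters. The related pattern GAANNGAAA was searched after the promoters had been seen. It lay 90 bases before the start in H2-K1, 150 in H2-D1 and 153 in H2-Q4, against 7.51% of all promoters. The NF-kB motif GGGNNTTCC lay 111 bases before the start in H2-K1, 171 in H2-D1 and 173 in H2-Q4, and was present in 5.82% of promoters. The core of the X2 box, TGACGC, which belongs to the module bound by the RFX and CREB factors, began 41 bases before the start in H2-K1 and 101 in H2-D1, with a share of 7.41% overall. In H2-Q4 it lay on the other strand, 30 bases after the start and outside the bases printed. The Y box ATTGG was in 6 of the 7 members, all but Erap1, and in 37.4% of promoters. The interferon gamma activated site TTCNNNGAA was in 0 of the 7 and in 8.3% of promoters. Tap1 and the immunoproteasome gene Psmb9 are transcribed away from each other, and their windows before the start share 225 of 250 bases. A match describes letters in the reference and is not a shown binding site.

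Most genes of the list had somewhat higher values in H10 cells, and few of these differences passed the test. Of the 8 genes with a feature of their own, 1 passed the test as higher in H10 cells (Erap1), 0 as lower, and 7 did not pass. The background was 1.85% of all genes higher (369 of 19930) and 1.04% lower (208). At an unadjusted p under 0.05, 5 of the 8 were higher and 0 lower, beside 6.1% of all genes higher (1216) and 7.67% lower (1528). All 3 H10 arrays lay above all 3 C8 arrays for 5 of the 8 genes, where 7.74% of all genes showed this order and 12.7% the opposite one. The median log2 fold change of the 8 genes was 0.33, a fold of 1.26, beside -0.03 for all genes. None of the 8 was 5-fold higher, a size passed by 0.206% of genes (41). As the members were picked with results of these arrays known, these counts describe them and are not a test of the list.

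**Figure D1:**
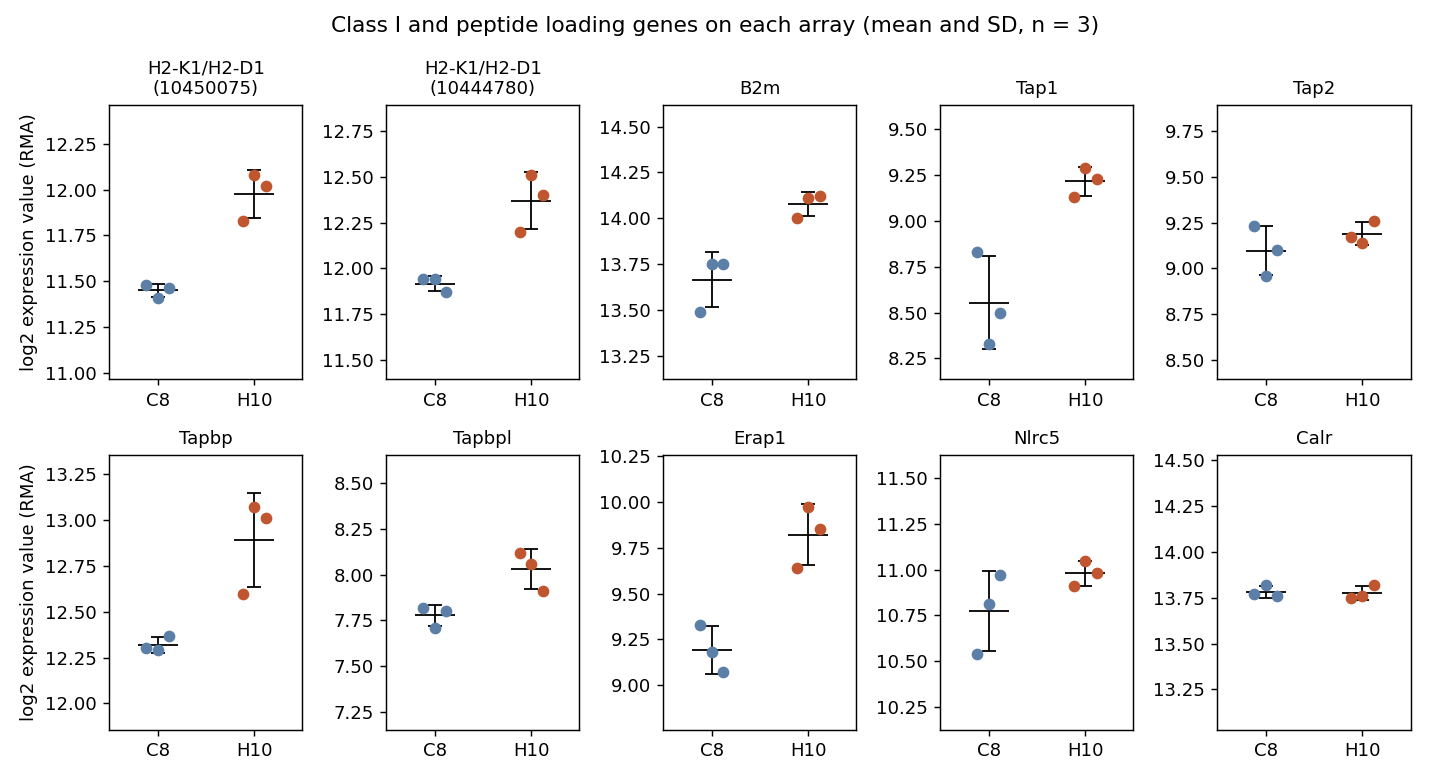
Log2 expression values (RMA) of the members on each of the 3 C8 arrays (blue) and 3 H10 arrays (orange); bars give the mean and SD, n = 3, and every panel spans the same width on the log2 axis. The groups do not overlap for the 2 features shared by H2-K1 and H2-D1, B2m, Tap1, Tapbp, Tapbpl and Erap1, and they overlap for Tap2, Nlrc5 and Calr.

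The classical heavy chains, which hold the peptide, could be read only together. The feature 10450075, shared by H2-K1, H2-D1 and LOC547349, had log2 values of 11.83, 12.08 and 12.02 in H10 cells and 11.48, 11.41 and 11.46 in C8 cells. The lines did not overlap, and the C8 arrays lay close together. The log2 difference was 0.53 ± 0.08 (SE, n = 3 per line), a 1.44-fold higher level, and passed the test (limma adjusted p = 0.0293). Among the 1621 features that carry several symbols, 2.59% were called higher. The feature 10444780, annotated to the same 3 symbols and the brighter of the pair, read 12.20, 12.51 and 12.40 in H10 cells against 11.94, 11.94 and 11.87 in C8 cells. Again no H10 array reached down to a C8 array, and the log2 difference of 0.45 ± 0.09 (1.37-fold) missed the threshold (limma adjusted p = 0.0698). The probes do not tell the 2 genes apart, and whether they match the BALB/c alleles of these polymorphic genes was not tested. Of the 6 fits that each left out 1 array, the call on feature 10450075 held in 1, that without H10 replicate 1 (limma adjusted p 0.0219 to 0.145 over the 6). In bulk RNA, fewer expressing cells and less RNA per cell cannot be told apart, here and for the genes that follow.

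B2m encodes the light chain that every class I heavy chain needs to reach the surface. Its log2 values were 14, 14.11 and 14.12 in H10 cells and 13.49, 13.75 and 13.75 in C8 cells. All H10 arrays stood above all C8 arrays, and C8 replicate 1 was the lowest of the 6. The difference in log2 value was 0.41 ± 0.09 (1.33-fold, 95% confidence interval 1.14 to 1.55), which did not pass after adjustment (limma adjusted p = 0.0953).

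The transporter subunits gave unlike log2 differences. Tap1 had log2 values of 9.13, 9.29 and 9.23 in H10 cells and 8.83, 8.33 and 8.5 in C8 cells. The lines did not overlap, although the C8 arrays were spread over a wider range than the H10 arrays. Its log2 fold change, 0.66 ± 0.13 (1.58-fold), was the highest of the 8 genes and did not pass the test (limma adjusted p = 0.0681). Without C8 replicate 1, the C8 array with the highest Tap1 value, the log2 fold change was 0.80 with an adjusted p of 0.0196 in limma, while in each of the other 5 fits without 1 array Tap1 did not pass (adjusted p 0.139 to 0.233). Tap2, the partner that completes the channel, read 9.17, 9.14 and 9.26 in H10 cells and 9.23, 8.96 and 9.10 in C8 cells. Here the lines overlapped, with C8 replicate 1 above H10 replicates 1 and 2. The log2 difference was 0.09 ± 0.09, with a 95% confidence interval of the fold from 0.926 to 1.23 (limma adjusted p = 0.8), and with 1 array left out the difference ran from 0.025, without C8 replicate 2, to 0.16, without C8 replicate 1. The change of Tap1 could be set against that of Tap2 within each array. Tap1 minus Tap2 was -0.04, 0.15 and -0.03 in H10 cells and -0.40, -0.63 and -0.60 in C8 cells, so that H10 exceeded C8 by 0.57 on the log2 scale without overlap. The two-sided exact permutation p was 0.1, which is the smallest that 3 arrays against 3 allow, and this pair was 1 of 2 compared in this way, both chosen with their values known.

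Among the loading genes, tapasin was the one with the widest gap. Tapbp read 12.60, 13.07 and 13.01 in H10 cells and 12.30, 12.29 and 12.37 in C8 cells. The C8 values were tight and H10 replicate 1 lay well below the other H10 arrays, yet above all of C8. The log2 difference was 0.57 ± 0.13 (1.49-fold; limma adjusted p = 0.101), and without H10 replicate 1 it was 0.72 with an adjusted p of 0.0131. In the other 5 fits without 1 array Tapbp did not pass (adjusted p 0.208 to 0.324 in limma). The 2 features that Tapbp shares with Rps3a1, a ribosomal protein gene, showed log2 differences of -0.07 and -0.04, with overlapping lines (limma adjusted p = 0.83 and 0.915). Tapbpl, the related editor of peptides, had log2 values of 8.12, 8.06 and 7.91 in H10 cells and 7.82, 7.71 and 7.80 in C8 cells. The lines were separated by 0.09 at the closest arrays, and the log2 difference of 0.25 ± 0.08 (1.19-fold) did not pass (limma adjusted p = 0.23).

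Calr, a lectin chaperone of the endoplasmic reticulum that serves many glycoproteins beside class I, was nearly level. It read 13.75, 13.76 and 13.82 in H10 cells and 13.77, 13.82 and 13.76 in C8 cells. The 2 lines covered the same range, and the log2 difference was -0.01 ± 0.06, with a 95% confidence interval of the fold from 0.904 to 1.10 (limma adjusted p = 0.985). Tapbp minus Calr within each array was -1.15, -0.69 and -0.81 in H10 cells and -1.47, -1.53 and -1.39 in C8 cells. The lines differed by 0.58 on the log2 scale without overlap, again with a two-sided exact permutation p of 0.1. Of the chaperones that act with Calr on the heavy chain, the log2 difference was -0.01 for Canx, the membrane-bound relative of calreticulin, and -0.03 for Pdia3 (limma adjusted p = 0.974 and 0.939).

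Erap1, which trims the ends of peptides to the length that fits the groove, was the member that passed the test. Its log2 values were 9.64, 9.97 and 9.85 in H10 cells and 9.33, 9.18 and 9.07 in C8 cells. The lowest H10 array stood 0.31 above the highest C8 array. The log2 fold change was 0.63 ± 0.11 (1.54-fold, 95% confidence interval 1.29 to 1.85; limma adjusted p = 0.0446). The call lay near the threshold. It was kept in 1 of the 6 fits without 1 array, that without H10 replicate 1, and over the 6 the adjusted p ranged from 0.0416 to 0.183 while the log2 fold change stayed between 0.55 and 0.72. Over all alternatives tried, the adjusted p of Erap1 ran from 0.00924 to 0.183.

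H10 replicate 1 gave the lowest H10 value for 8 of the 10 features that stand for the members, all but those of Tap2 and Tapbpl. Without the replicate 1 arrays of both lines, a fit chosen after seeing the data, 3 of the 8 genes passed as higher in limma: Tap1 (log2 fold change 0.85, adjusted p = 0.0387), Tapbp (0.71, adjusted p = 0.0339) and Erap1 (0.79, adjusted p = 0.0401).

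**Figure D2:**
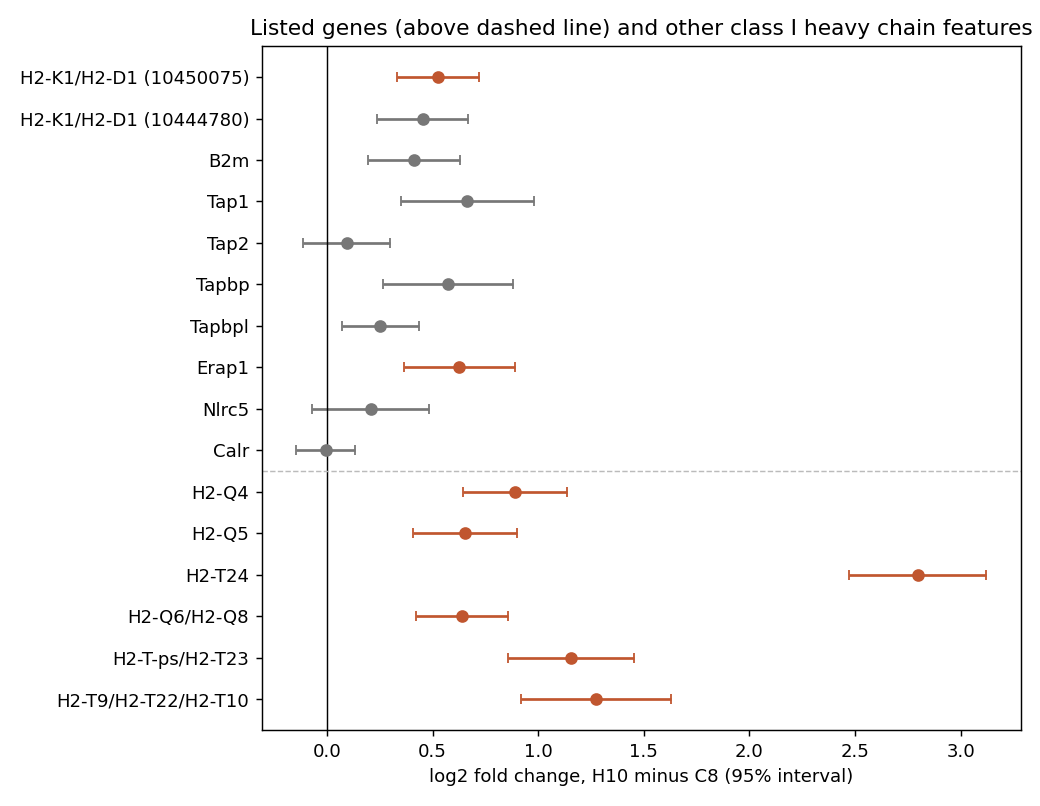
Log2 fold change (H10 minus C8, x axis) with its 95% confidence interval for the members, above the dashed line, and for other class I heavy chain features that passed the test, below it; orange marks an adjusted p under 0.05 in limma, and the numbers in brackets are the 2 features that H2-K1 and H2-D1 share. The intervals of Tap2, Nlrc5 and Calr cross 0, and H2-T24 lies apart at 2.80.

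Nlrc5, the regulator of the class I promoters, had 19 features of its own, and what they showed depended on the feature read. The brightest of them had log2 values of 10.91, 11.05 and 10.98 in H10 cells and 10.54, 10.81 and 10.97 in C8 cells. C8 replicate 3 reached the H10 range, and the log2 difference of 0.21 ± 0.12 did not pass (limma adjusted p = 0.602). It was 0.09 without C8 replicate 1 and 0.30 without C8 replicate 3, the ends of the range when 1 array was left out. All 19 features had a positive log2 difference, from 0.03 to 0.80 with a median of 0.33, and for 13 of them the H10 arrays lay entirely above the C8 arrays. By the test, 5 of the 19 were higher, 0 lower and 14 did not pass. Over all genes, each on its brightest feature, 7.74% showed that array order and 1.85% were called higher. These shares count genes and not features. The 5 called features had log2 differences of 0.46, 0.62, 0.49, 0.71 and 0.80, with adjusted p between 0.0111 and 0.0414 in limma. The features of a gene read the same RNA and are not replicates of each other. Of the 15 features brighter than the median of the table (7.7), 3 were called and their median log2 difference was 0.28, whereas 2 of the 4 dimmer ones were called, with a median of 0.61. When the features of each gene were averaged before the fit, the log2 difference of Nlrc5 was 0.38 and passed the test (limma adjusted p = 0.0258).

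**Figure D3:**
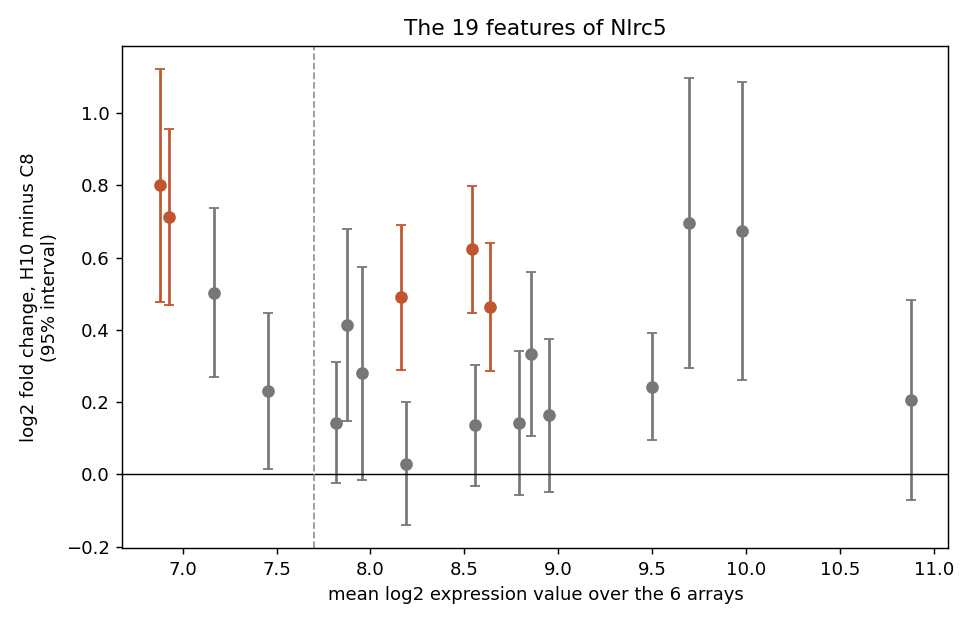
Log2 fold change of the 19 Nlrc5 features (y axis, H10 minus C8, with the 95% confidence interval) against their mean log2 value over the 6 arrays (x axis); orange points have an adjusted p under 0.05 in limma, and the dashed line is the median of the table, 7.7. All points lie above 0, and the brightest feature, at 10.88, is among those whose interval includes 0.

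The other class I heavy chains, mostly non-classical molecules, included H2-T24, whose difference exceeded those of the members and of the other genes in the antigen presentation lists. Of 30 listed, 20 had a feature of their own, and 3 of these were higher in H10 cells, 0 lower and 17 not past the test, with a median log2 fold change of 0.17. At an unadjusted p under 0.05, 8 were higher and 1 lower. Over all genes, 1.85% were called higher, and 6.1% were higher and 7.67% lower at the unadjusted threshold. H2-T24, a heavy chain gene of the T region, read 10.66, 11.10 and 11.02 in H10 cells and 8.17, 7.97 and 8.25 in C8 cells. The lines were far apart on every array. The log2 fold change was 2.80 ± 0.13 (6.95-fold; limma adjusted p = 0.00059), and it passed in all 6 fits without 1 array, with adjusted p from 0.000654 to 0.00756. H2-Q4, of the Q region, had log2 values of 10.27, 10.44 and 10.55 in H10 cells against 9.68, 9.49 and 9.42 in C8 cells, without overlap. The log2 difference was 0.89 ± 0.10 (1.85-fold; limma adjusted p = 0.0103). H2-Q5 was also higher, by 0.65 (limma adjusted p = 0.0314), whereas the values of H2-Q2 and H2-Q10 differed by 0.25 and 0.19 (limma adjusted p = 0.302 and 0.538). H2-Q4 passed in 2 of the 6 fits without 1 array, those without H10 or C8 replicate 1, and H2-Q5 in 1, that without H10 replicate 1.

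Further heavy chains were read on shared features. The feature of H2-T23, which encodes Qa-1, and the pseudogene H2-T-ps had log2 values of 10.61, 11 and 11 in H10 cells and 9.59, 9.79 and 9.76 in C8 cells. The lines did not overlap, and the log2 difference of 1.16 ± 0.12 (2.23-fold) passed the test in limma with all arrays (adjusted p = 0.00828) and in all 6 fits without 1 of them. The feature of H2-T9, H2-T22 and H2-T10 read 9.89, 10.46 and 10.24 against 8.83, 9.04 and 8.90. Here too no array of one line reached the other, and the log2 difference was 1.27 ± 0.15 (2.42-fold; limma adjusted p = 0.0107), past the threshold in 4 of the 6 fits without 1 array, all but those without H10 or C8 replicate 3. H2-T10 also had a feature of its own, which differed by 0.58 without overlap and did not pass (limma adjusted p = 0.217). The feature of H2-Q6 and H2-Q8 was higher by 0.64 (limma adjusted p = 0.0223), a call kept in 1 of those 6 fits, that without H10 replicate 1. The remaining 2 shared heavy chain features did not pass: that of H2-Q1 and H2-Bl differed by 0.18 and that of H2-T3 and H2-T18 by 0.04 (limma adjusted p = 0.406 and 0.937). None of these features tells its genes apart. For these heavy chains and those with a feature of their own, whether the probes match the BALB/c alleles was not tested.

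Among the other molecules that pair with β2-microglobulin, 4 of 5 were measured and 0 passed in either direction in limma, with 1 higher and 0 lower at an unadjusted p under 0.05. The lipid-presenting molecules Cd1d1 and Cd1d2 had log2 differences of 0.07 and -0.09 (limma adjusted p = 0.947 and 0.667). The median of the group was 0.14. At that unadjusted threshold, 6.1% of all genes were higher.

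The peptide supply before the transporter was measured by 9 genes of the immunoproteasome, its activator PA28 and the constitutive catalytic subunits that the inducible ones replace. Of these, 5 were higher in H10 cells, 0 lower and 4 not past the test, with a median log2 fold change of 0.46. At an unadjusted p under 0.05, 6 were higher and 0 lower. The shares over all genes were 1.85% called higher, and 6.1% higher and 7.67% lower at the unadjusted threshold. Psmb8, an inducible catalytic subunit encoded beside Tap1, read 9.54, 9.67 and 9.59 in H10 cells and 8.95, 8.39 and 8.45 in C8 cells, a log2 difference of 1.00 (2.00-fold; limma adjusted p = 0.0274) without overlap. The other inducible subunits, Psmb10 and Psmb9, were higher by 0.64 and 0.46 (limma adjusted p = 0.025 and 0.0445). The PA28 genes Psme2 and Psme1 were higher by 0.68 and 0.50 (limma adjusted p = 0.0115 and 0.0421). In contrast, Psme3, which encodes the nuclear form of PA28, differed by 0.02 and the constitutive subunit gene Psmb5 by 0.09 (limma adjusted p = 0.964 and 0.774). When 1 array was left out, 3 of the 9 passed without H10 or C8 replicate 1 and 0 in each of the other fits. The peptidases that act outside the endoplasmic reticulum gave no call in either direction among 7 measured in limma, with 0 higher and 1 lower at an unadjusted p under 0.05. Tpp2 differed by -0.03 and Lap3 by 0.11.

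The chaperones of the endoplasmic reticulum had a negative median. Of 16, 0 were higher, 1 was lower and 15 did not pass, where 1.85% of all genes were higher and 1.04% lower. The median log2 fold change was -0.15. At an unadjusted p under 0.05 there were 0 higher and 7 lower, beside 6.1% and 7.67% of all genes. Hyou1, a large chaperone of the stress response of this compartment, read 11.34, 11.44 and 11.44 in H10 cells and 12.22, 12.11 and 12.03 in C8 cells. All H10 arrays were below all C8 arrays, and the log2 difference was -0.71 ± 0.07 (limma adjusted p = 0.00675), past the threshold in all 6 fits without 1 array. Genes of entry into, exit from and degradation at the endoplasmic reticulum gave 0 calls in either direction among 13 in limma, with 0 higher and 2 lower at an unadjusted p under 0.05. The translocon genes Sec61a1 and Sec61b differed by -0.09 and -0.11 on the log2 scale.

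Factors that act on class I promoters were divided. Of 14 measured, 2 were higher, 1 lower and 11 not past the test, and the median log2 fold change was -0.08. Among all genes, 1.85% were higher and 1.04% lower. Irf9, the DNA-binding part of the complex that type I interferon activates, had log2 values of 10.66, 10.91 and 10.85 in H10 cells and 9.87, 9.65 and 9.71 in C8 cells. The lines did not overlap, and the log2 difference was 1.06 ± 0.09 (2.09-fold; limma adjusted p = 0.00405), past the threshold in all 6 fits without 1 array. Irf1, a factor long known at class I promoters, was higher by 0.78 (limma adjusted p = 0.019), or by 0.38 when its features were averaged (adjusted p = 0.00924). Rfx5, the RFX subunit with the DNA-binding domain, read 9.85, 9.75 and 9.86 in H10 cells and 10.47, 10.27 and 10.27 in C8 cells. It was lower in H10 cells on every array, with a log2 difference of -0.52 ± 0.08 (limma adjusted p = 0.0292). The other RFX subunits Rfxap and Rfxank had differences of -0.20 and -0.04 (limma adjusted p = 0.362 and 0.929). Irf1 and Rfx5 each passed in 1 of the 6 fits without 1 array, that without C8 replicate 1.

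MHC class II presents peptides from the endosome and uses other genes for loading. Of 11 class II and loading genes measured, 1 was higher, 0 lower and 10 not past the test, with a median log2 fold change of -0.06. At an unadjusted p under 0.05, 1 was higher and 2 lower, beside 6.1% and 7.67% of all genes, of which 1.85% were called higher. The called gene was Ctss, a lysosomal protease that acts on the invariant chain and also on other substrates, with log2 values of 12.39, 12.80 and 12.81 in H10 cells and 11.64, 11.79 and 11.98 in C8 cells (difference 0.86; limma adjusted p = 0.0376). It passed in 1 of the 6 fits without 1 array, that without H10 replicate 1. The class II chains H2-Aa and H2-Ab1 lay below the table median on every array, and their log2 differences were -0.03 and -0.09 (limma adjusted p = 0.932 and 0.7). Cd74, the gene of the invariant chain, was bright in both lines (mean log2 values 11.83 in H10 and 12.42 in C8). Its log2 difference of -0.59, without overlap, did not pass (limma adjusted p = 0.418).

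**Figure D4:**
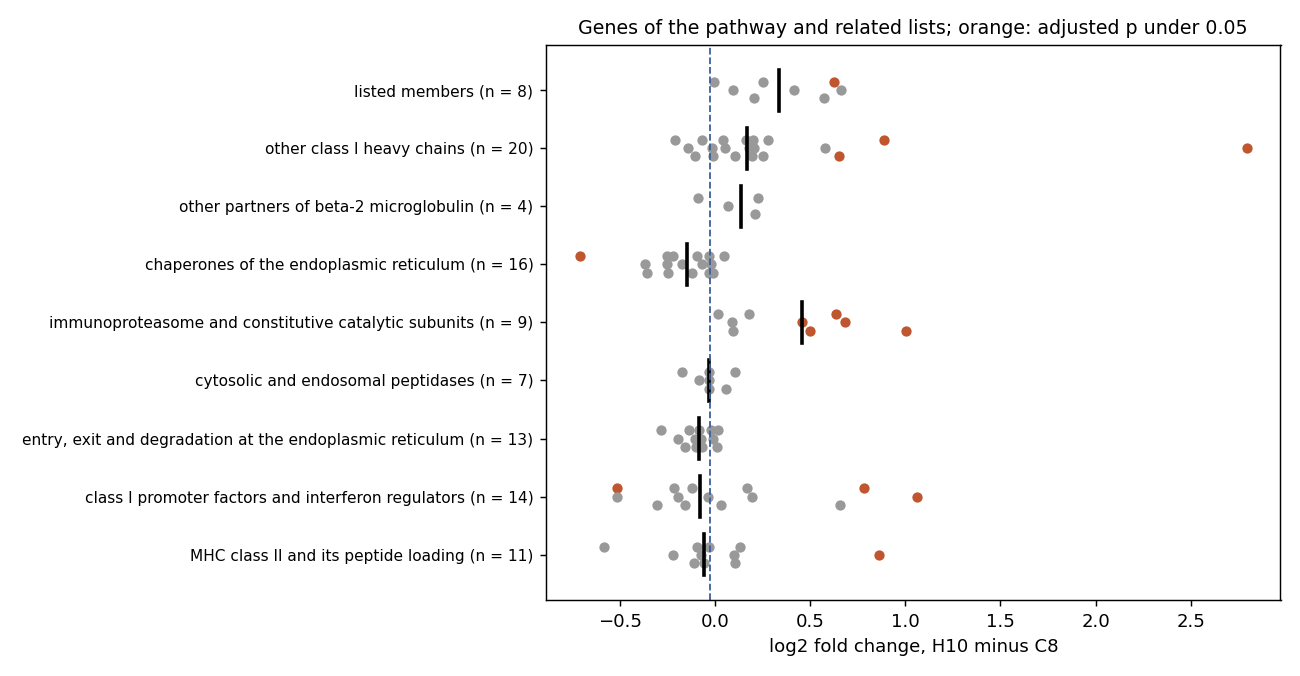
Log2 fold change (x axis, H10 minus C8) of each gene in the list described here and in the related lists; orange points passed the test in limma, black bars are the median of a list and the blue dashed line is the median of all genes, -0.03. The immunoproteasome list has the highest median, 0.46, and the chaperone list the lowest, -0.15.

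Tapbp, H2-K1, Tap1, Tap2 and H2-D1 lie in the MHC on chromosome 17, and the genes around them were read beside them. From Tapbp to the last H2-M gene, 166 genes had a value, with the features shared by H2-K1 and H2-D1 placed at the first symbol each carries. Of these, 7 were higher and 2 lower, where 1.85% of all genes in the table were higher and 1.04% lower. The 27 genes for class I heavy chains, loading and the immunoproteasome held 6 of the 7 and none of those that were lower, with a median log2 fold change of 0.20. The other 139 genes had 1 higher, the odorant receptor gene Olfr101 (0.78, limma adjusted p = 0.0377), and a median of -0.04. Among these others the heat shock genes Hspa1a and Hspa1l were lower, with log2 differences of -0.76 and -0.52 (limma adjusted p = 0.02 and 0.0133). Around all 10 members, on every chromosome, the 3 nearest genes with a value on each side made 55 distinct neighbours that are no members. Of these neighbours, 4 were higher (Psmb8 and Psmb9 beside Tap1 and Tap2, H2-Q4 and H2-Q5 beside H2-D1), 1 was lower and 50 did not pass, with a median log2 fold change of -0.01. The lower one was Herpud1, near Nlrc5 on chromosome 8, a gene of degradation at the endoplasmic reticulum (-0.60; limma adjusted p = 0.0369).

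**Figure D5:**
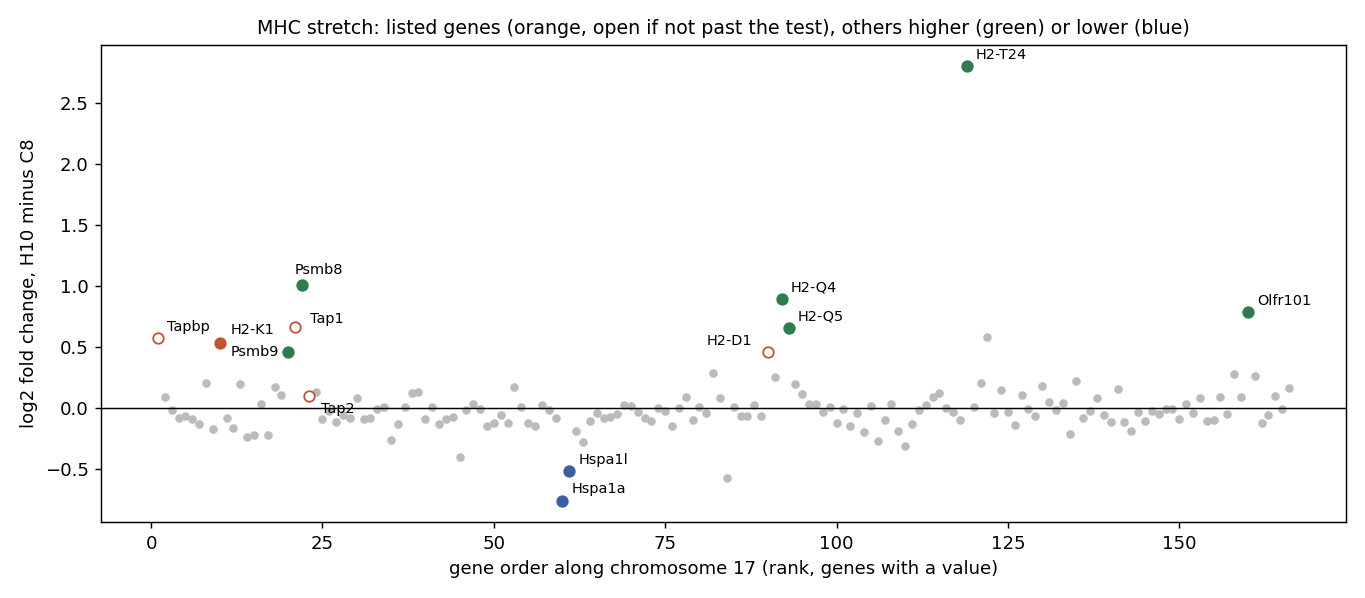
Log2 fold change (y axis, H10 minus C8) of 166 genes in their order along chromosome 17 (x axis, rank) from Tapbp to the last H2-M gene. Orange marks members, open where they did not pass the test; green and blue mark other genes that were higher or lower in limma, and grey the rest, most of which lie near 0 between the called genes.

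The genes with the profile nearest to a member over the 6 arrays were sought among 11188 genes brighter than the median of the table, by the mean absolute difference after each profile was centred on its own mean. Nearest to Tap1 were Cblb, at 0.045 log2 units, Cdc42ep3 at 0.052 and the immunoproteasome gene Psmb10 at 0.053. Nearest to Nlrc5, on its brightest feature, were Pdzk1ip1 at 0.042, D130052B06Rik at 0.047 and Cxcl16 at 0.050.

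Markers were read to see which cells the arrays held. Of 8 macrophage marker symbols listed, 7 were measured, and the other, Emr1, is a former symbol of Adgre1. Csf1r, the receptor for M-CSF, was high in both lines (mean log2 values 13.24 in H10 and 13.33 in C8). Of the 7 macrophage markers, 1 was called higher and 0 lower, where 1.85% of all genes were higher and 1.04% lower. The called gene was Adgre1, higher in H10 cells by 2.02 (limma adjusted p = 0.00114). Itgam differed by 0.51 without overlap and did not pass (limma adjusted p = 0.142). Cd68, Cd14 and Lyz2 were bright in both lines, with log2 differences of 0.04, 0.05 and 0.02. Mrc1 lay below the table median in both. Of 8 osteoclast markers, 5 were higher in H10 cells (Acp5, Ctsk, Dcstamp, Ocstamp and Oscar), where 1.85% of all genes were higher. The other markers did not pass. Their log2 differences were -0.34 for Mmp9, 0.07 for Calcr and 0.06 for Itgb3 (limma adjusted p = 0.534, 0.802 and 0.854). The summed linear level of all 8 was 29200 to 33400 on the H10 arrays against 14500 to 17800 in C8 cells. The 5 called osteoclast markers thus moved in the same contrast as the class I genes, and their part in that difference was not tested. Dendritic cells and B cells also express class I strongly. Of their markers, 6 and 4 were measured, 5 and 4 of them had means below the table median, and 0 passed in either direction in limma. The summed linear level of the dendritic cell markers was 843 to 878 in H10 cells and 802 to 907 in C8 cells, and that of the B cell markers 450 to 461 and 404 to 496. Over all 6 other cell types, which also took in lymphoid, neutrophil, stromal and lining cells, 31 markers were measured, with 0 called higher, 0 lower, and 1 higher and 1 lower at an unadjusted p under 0.05. The higher one was the fibroblast gene Dcn (log2 difference 1.48, limma adjusted p = 0.074) and the lower one the B cell gene Cd79a (-0.23, limma adjusted p = 0.209). At that unadjusted threshold, 6.1% of all genes were higher and 7.67% lower.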

How the data were processed

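Total RNA of 3 H10 and 3 C8 samples was hybridised to Affymetrix Mouse Gene 1.0 ST arrays. The deposited values are log2 values that the authors normalised with RMA, a method that sets the arrays to a common distribution; Affymetrix Expression Console is named in the submitters' processing notes, with a version not given in the sources used here. RMA compresses differences at low signal. The values were used as deposited, with no filter. Array medians were 7.65 to 7.74, and precision is limited by the 3 arrays per line. Gene symbols came from the platform annotation, and 21690 of the 21781 features with 1 symbol were found by gene ID in a RefSeq gene table, with 0 differing symbols. H10 was compared with C8 by limma 3.58.1 in R 4.3.3 (lmFit and eBayes, two-sided, residual df 4, prior df 2.57), with Benjamini-Hochberg adjustment over all 35545 features.

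The members and lists were chosen with earlier results of these data known. Named were all members and their features, and from each list up to 4 genes in each direction past the test and the first 2 that did not pass. Shared class I features, genes called in the MHC stretch and Cd74 were added after their values were seen. No block was used. Arrays with the same replicate number did not deviate together in all pairs (r = 0.25, 0.04 and 0.01). The value of 0.25, for the replicate 1 arrays, was the highest of all pairings of an H10 with a C8 array. These correlations cannot show whether the replicate number marks a batch. Alternatives were each array left out, the replicate block, quantile normalisation, median centring, a filter on dim features, an intensity trend with robust prior, other adjustments and thresholds, and the mean of a gene's features. The fit was tested on simulated data. Python 3.11.15 with matplotlib 3.10.9 drew the figures.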

Additional observations from a re-analysis of the deposited data

How the results depend on the processing

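Of the 8 genes with a feature of their own, 1 was called higher with the settings of the report. That count was also 1 under quantile normalisation, with the adjustment over 1 feature per gene and with the brightest shared feature of H2-K1 and H2-D1 added. It was 0 after median centring, at an adjusted p under 0.01 and at a fold of 5 or more, 2 with an intensity trend and robust prior, 4 with a filter that kept 17939 brighter features (Tap1, B2m and Tapbp besides Erap1), and 5 when a gene's features were averaged. It was 0 to 2 when 1 array was left out: 2 without H10 replicate 1, and 0 without H10 replicate 2 or 3 or C8 replicate 2 or 3. Without the replicate 1 arrays of both lines, an alternative chosen after seeing the data, it was 3. The count of members called lower was 0 under all alternatives run. Over all genes, 369 were higher and 208 lower. These counts were 164 and 50 at an adjusted p under 0.01, 41 and 2 at a fold of 5 or more, 606 and 491 with the mean of all features, and 152 to 346 and 40 to 126 with 1 array left out. They were 516 and 423 with the filter on dim features, and 310 and 78 without both replicate 1 arrays.

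The arrays were not taken as pairs, and with the replicate number as a block 0 of the 8 members were called, with 225 genes higher and 71 lower over all genes. In that fit, Erap1 had an adjusted p of 0.133 the shared feature 10450075 of 0.1 and Hyou1 of 0.0505, and the count of chaperones called lower went from 1 to 0. Outside the members, H2-T24, Irf9, Ctss and the shared features of H2-T23 and of H2-T9 stayed past the threshold in that fit, and the other named calls of the related lists did not. Calr was near 0 throughout, and its log2 difference ranged from -0.0283 to 0.0117 with 1 array left out. It changed sign to 0.0067 without H10 replicate 1, 0.0017 without H10 replicate 2 and 0.0117 without C8 replicate 2, and was 0.0000 without both replicate 1 arrays. The other members and the 2 features shared by H2-K1 and H2-D1 kept a positive difference under all alternatives run. The cause of these changes was not tested. The filter and the averaging adjust over fewer features and also changed the standard errors. For Tap1 the standard error was 0.1314 with the settings of the report, 0.1265 with the filter and 0.1206 with the averaging. The averaging also moved the log2 difference of Nlrc5 from 0.21 to 0.38. Adjusting over 1 feature per gene left the count of members called higher at 1. The fits without an array rest on fewer arrays.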
